A study of Mus musculus with 11 samples.

Results

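From the Polycomb and DNA methylation systems, 10 genes, Ezh1, Ezh2, Eed, Suz12, Bmi1, Kdm6b, Dnmt1, Dnmt3a, Uhrf1 and Hells, were followed through bulk RNA-seq of mouse pancreatic islets. They were taken by symbol from the count tables, and all 10 were found among the 55536 genes listed there. The 11 libraries came from wild-type C57BL/6J females that entered the study at 9 weeks of age. Multipara mice went through 3 pregnancies and were studied 3 weeks after the last delivery, and virgin mice were the controls. Within each of these conditions, some mice received S-961, a peptide that blocks the insulin receptor, at 100 nmol/kg in 2 injections per day for 3 days, and the others were untreated. There were 3 virgin S-961, 4 multipara S-961, 2 virgin untreated and 2 multipara untreated libraries, each called here by its label and replicate number. The study gives as many mice as libraries for both S-961 groups, whereas the labels tie no library to a mouse, and no source used here says whether the untreated libraries came from single mice, so the p-values measure the spread between these samples. The column name in each table matched the label of its sample. No gene was used to check the parity of a library, so every direction between multipara and virgin islets rests on the labels as deposited. Islets are a mixture of cells, so that fewer cells of a type and less RNA per cell cannot be told apart in these values.

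Polycomb proteins keep genes silent through marks on histones. Ezh1 and Ezh2 are the alternative enzymes of Polycomb repressive complex 2, which methylates lysine 27 of histone H3, and they work only together with the core subunits Eed, which binds the finished mark, and Suz12, which holds the complex together. Bmi1 is a subunit of Polycomb repressive complex 1, which ubiquitinates histone H2A, and Kdm6b is a demethylase that removes the lysine 27 mark. DNA methylation is copied to the new strand after replication by Dnmt1, which Uhrf1 guides to newly copied sites, with the chromatin remodeler Hells needed for access to packed DNA, whereas Dnmt3a places methyl groups on unmethylated sites. In islets the system is best known for the Cdkn2a locus, which encodes inhibitors of the cell cycle. Ezh2 and Bmi1 repress it in young beta cells, and it is released as beta cells age.

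In GRCm38, Ezh1 lies at chr11:101191115-101226463 on the minus strand and Ezh2 at chr6:47530139-47595341 on the minus strand. Eed lies at chr7:89954654-89980983 (minus), Suz12 at chr11:79993106-80034123 (plus), Bmi1 at chr2:18677018-18686629 (plus) and Kdm6b at chr11:69398508-69413675 (minus). Dnmt1 lies at chr9:20907209-20959888 (minus), Uhrf1 at chr17:56303321-56323486 (plus), Hells at chr19:38930915-38971051 (plus) and Dnmt3a at chr12:3806007-3914443 (plus). All are protein-coding in GENCODE M21. Exons of 5 of them overlap exons of a gene on the opposite strand, namely Gm26625 at Ezh2, E230029C05Rik at Eed, Gm26563 at Suz12, Kdm6bos at Kdm6b and Dnmt3aos at Dnmt3a. The libraries were made with a kit that keeps the strand, but the strand setting of the counting is not given in the sources used here, so reads of these pairs may not be fully separated. The deposited value of Eed was not a whole number in 11 libraries, that of Suz12 in 7, that of Kdm6b in 3 and that of Bmi1 in 2, a sign of reads shared with other loci.

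The promoters below are shown because the 10 genes fell into a group that followed proliferation genes and a group that did not, and E2F factors, which drive genes of DNA replication, are known for a binding sequence near the start of such genes. RefSeq promoters of build GRCm38.p6, 250 bases before to 50 bases after a gene's start, were found for 9 of the 10 genes and not for Kdm6b. Each run gives 220 bases before the start and the first 30 bases from the start on, 5′ to 3′ on the gene's strand. Capitals mark the E2F letters searched for, which were TTTCCCGC, TTTGGCGC, TTTCGCGC or TTTGCCGC on either strand. Uhrf1, Dnmt1 and Dnmt3a have more than 1 start in RefSeq. For Uhrf1 and Dnmt1, both an upstream start, nearest to the annotated 5′ end, and a downstream start are shown.
Ezh2, chr6:47595001-47595250, minus strand: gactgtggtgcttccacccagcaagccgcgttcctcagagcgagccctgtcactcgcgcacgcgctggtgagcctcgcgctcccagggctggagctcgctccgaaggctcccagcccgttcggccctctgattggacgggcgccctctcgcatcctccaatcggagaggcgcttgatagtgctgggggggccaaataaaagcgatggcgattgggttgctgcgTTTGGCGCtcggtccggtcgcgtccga
Hells, chr19:38930770-38931019, plus strand: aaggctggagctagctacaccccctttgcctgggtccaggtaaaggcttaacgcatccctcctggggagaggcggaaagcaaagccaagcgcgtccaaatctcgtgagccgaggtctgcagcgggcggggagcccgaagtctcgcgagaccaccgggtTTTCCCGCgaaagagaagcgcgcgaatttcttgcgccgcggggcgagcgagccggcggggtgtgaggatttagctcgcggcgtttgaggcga
Uhrf1, downstream start, chr17:56304093-56304342, plus strand: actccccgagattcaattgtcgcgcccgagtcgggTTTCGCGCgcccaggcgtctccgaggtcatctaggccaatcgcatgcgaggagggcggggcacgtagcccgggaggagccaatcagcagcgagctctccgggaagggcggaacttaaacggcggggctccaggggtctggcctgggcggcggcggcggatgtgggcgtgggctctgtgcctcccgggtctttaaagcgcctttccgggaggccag
Uhrf1, upstream start, chr17:56303117-56303366, plus strand: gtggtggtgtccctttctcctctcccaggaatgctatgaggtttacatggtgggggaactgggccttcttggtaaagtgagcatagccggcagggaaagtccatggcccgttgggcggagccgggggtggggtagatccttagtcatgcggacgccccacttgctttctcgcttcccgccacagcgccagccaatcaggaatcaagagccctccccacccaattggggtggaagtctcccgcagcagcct
Dnmt1, downstream start, chr9:20952594-20952843, minus strand: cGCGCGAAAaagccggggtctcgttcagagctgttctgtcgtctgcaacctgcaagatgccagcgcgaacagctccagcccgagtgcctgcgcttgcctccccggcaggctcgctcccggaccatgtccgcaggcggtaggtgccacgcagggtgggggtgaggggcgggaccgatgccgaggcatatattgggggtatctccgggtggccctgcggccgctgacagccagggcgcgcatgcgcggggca
Dnmt1, upstream start, chr9:20959859-20960108, minus strand: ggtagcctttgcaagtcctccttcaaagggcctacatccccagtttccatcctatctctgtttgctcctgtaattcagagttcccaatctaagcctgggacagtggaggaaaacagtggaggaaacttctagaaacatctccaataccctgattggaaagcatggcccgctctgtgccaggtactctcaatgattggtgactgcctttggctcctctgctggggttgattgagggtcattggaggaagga
Ezh1, chr11:101226434-101226683, minus strand: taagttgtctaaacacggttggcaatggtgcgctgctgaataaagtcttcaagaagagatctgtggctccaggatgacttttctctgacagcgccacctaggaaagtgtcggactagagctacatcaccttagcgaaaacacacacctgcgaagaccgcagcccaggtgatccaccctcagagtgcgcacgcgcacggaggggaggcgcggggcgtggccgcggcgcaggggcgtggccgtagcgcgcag

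Per promoter, the E2F letters were in 2.27% of all 32851 RefSeq promoters of this length. Genes with more than 1 start had more windows searched. Counted from the start, where the first transcribed base is 1, the E2F letters began at base 4 in Ezh2 and at base -62 in Hells. Suz12, whose promoter is not shown, held them at base -219. The downstream start of Uhrf1 had them at base -185, and that of Dnmt1 had them at base -219 and, past the printed stretch, at base 34. They were absent from the windows of Ezh1, Eed, Bmi1 and Dnmt3a, from the upstream starts of Uhrf1 and Dnmt1, and from the third start of Dnmt1. CCAAT, a box of general promoters, was found in 37.4% of all promoters and 3 times in that of Ezh2. It was found 5 times at the upstream and 3 times at the downstream start of Dnmt1, 3 and 2 times at those of Uhrf1, and 1 time each in Eed and Suz12, and was absent from the windows of Ezh1, Bmi1, Hells and Dnmt3a and from the third start of Dnmt1. The CHR letters of late cell cycle genes, TTTGAA or TTCGAA, were in 19.2% of all promoters. They were found 2 times in Eed and 1 time each in Suz12 and at the upstream start of Dnmt1, and were absent from the windows of the other genes and from the other starts of Dnmt1. CCAAT and CHR letters were searched on both strands, and the 3 sets of letters share no complete word. These matches describe letters in a window only.

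Total counts ran from 22028507 to 32234146 per library. Beta cell markers dominated every library, with Ins1 and Ins2 together at 13.2 to 20.7% of all counts in S-961 islets and at 35.3 to 41.4% in untreated islets. Levels are given as CPM, counts per 1000000 counts of the library, with TMM scaling factors set over all 11 libraries together. The 4 multipara S-961 libraries were not alike. Mki67, the classic marker of dividing cells, was at 95.4, 67.1 and 43.0 CPM in multipara S-961 1, 2 and 3, and at 3.95 CPM in the library labelled multipara S-961 4. The virgin S-961 libraries were at 3.44, 13.9 and 3.12 CPM, so that the library labelled multipara S-961 4 lay within their range. Multipara untreated 1 stood apart as well. Its summed CPM over 8 lymphocyte markers was 246.0, against 25.3 to 37.1 in the other untreated libraries, and over 8 macrophage markers 873.8, against 178.7 to 208.4. Its Mki67 was at 37.5 CPM, against 2.09 CPM in multipara untreated 2 and 6.48 and 3.50 CPM in the virgin untreated libraries.

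The 10 genes divided by how much they varied over the libraries. Hells spanned 0.40 to 26.7 CPM, a range of 66.3-fold, and Uhrf1 spanned 0.55 to 16.7 CPM, a range of 30.1-fold. Ezh2 varied 6.01-fold and Dnmt1 3.13-fold. The other genes stayed between 1.41-fold (Eed) and 2.69-fold (Kdm6b). As the plot of CPM by library shows, the high values of Hells, Uhrf1, Ezh2 and Dnmt1 came from the same 4 libraries, multipara S-961 1, 2 and 3 and multipara untreated 1.

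**Figure D1:**
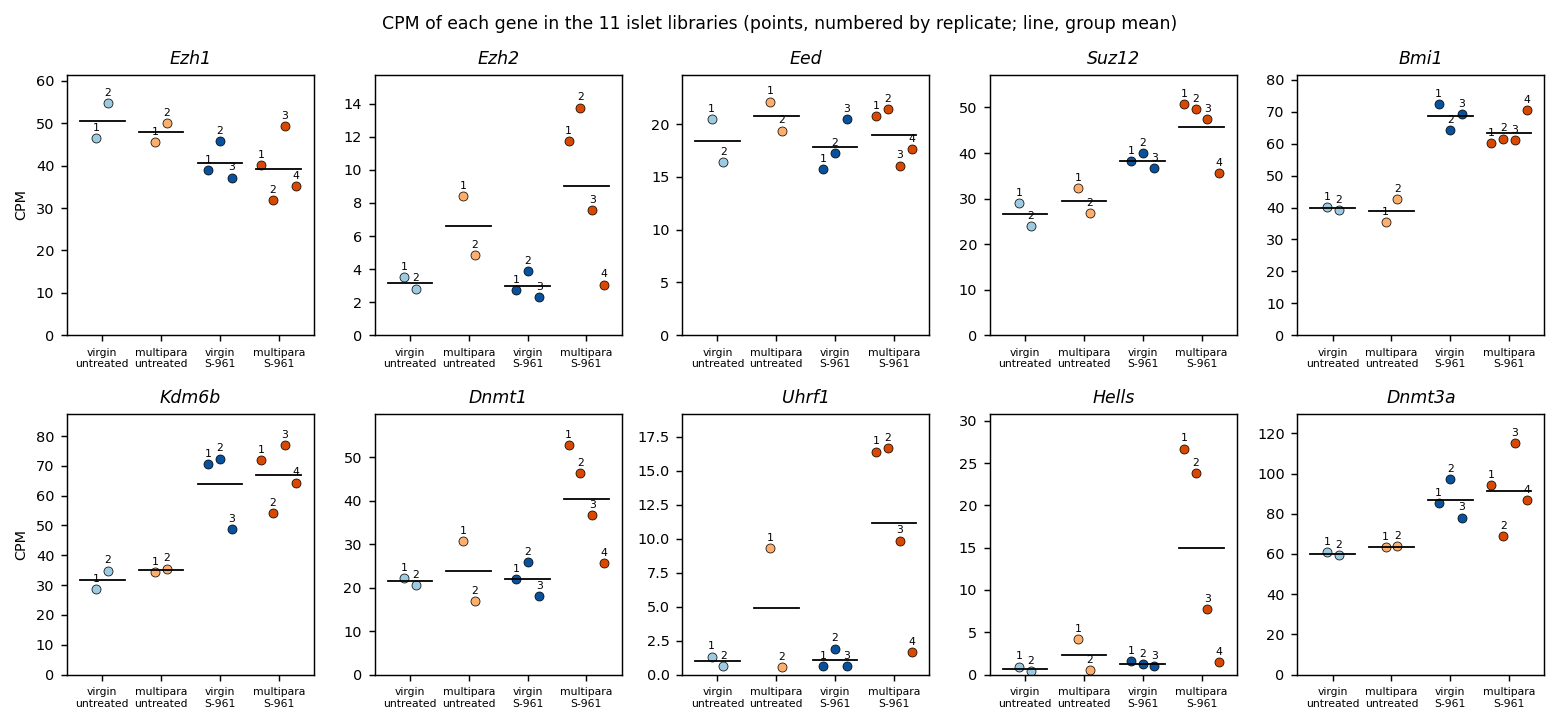
CPM of the 10 genes (y axis, from 0, a scale for each panel) in the 4 groups (x axis), with a point per library numbered by its replicate and a line at the group mean. For Ezh2, Dnmt1, Uhrf1 and Hells, multipara S-961 4 lay near the virgin libraries while multipara S-961 1, 2 and 3 lay above them, whereas Bmi1, Kdm6b, Suz12 and Dnmt3a separated by treatment.

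Levels of different genes were compared as CPM per kilobase, over the length of all annotated exons of a gene, which can exceed the transcript in use. That length was 16642 bases for Dnmt3a and 7377 for Dnmt1, and the order of genes depends on it. In plain CPM Dnmt3a was the highest of the 10 in virgin untreated islets, at 60.2 CPM against 39.7 CPM for Bmi1. Per kilobase, Bmi1 was the most abundant of the 10 there, with 9.99 ± 0.18 CPM per kb (SD, n = 2). Ezh1 followed with 6.80 ± 0.79, Suz12 with 5.36 ± 0.73, Eed with 4.81 ± 0.75 and Kdm6b with 4.57 ± 0.62 CPM per kb. The ranges of Suz12, Eed and Kdm6b overlapped, so that their order was not resolved. Dnmt3a was at 3.62 ± 0.07 and Dnmt1 at 2.91 ± 0.15 CPM per kb. Ezh2 was far lower, at 0.47 ± 0.07 CPM per kb, with Uhrf1 at 0.23 ± 0.11 and Hells at 0.09 ± 0.05. Ezh1 was the more abundant of the alternative PRC2 enzymes in each of the 11 libraries, where the ratio of Ezh2 to Ezh1 per kb ran from 0.06 to 0.48.

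The main comparison set the 4 multipara against the 3 virgin libraries after S-961, when islets are under high demand for insulin. By the labels as deposited, Ezh2, Dnmt1, Uhrf1 and Hells were higher in the multipara group on average, and none passed the test adjusted over all genes. Ezh1, Eed, Suz12, Bmi1, Kdm6b and Dnmt3a differed by no more than 0.28 on the log2 scale. The quasi-likelihood test of edgeR, adjusted by the Benjamini-Hochberg method, called 0 of the 16784 genes tested, which is 0% of them, and 0 of the 10 genes here. At an unadjusted p under 0.05, 4 of the 10 genes were higher in multipara islets and 0 were lower, against 8.03% of all genes tested that were higher. Multipara and virgin libraries did not overlap, with multipara higher, for 5.2% of all genes and for 0 of these 10, and for Ezh2, Uhrf1, Hells, Dnmt1 and Suz12 the library that overlapped was multipara S-961 4. The same 4 genes were called by DESeq2, which called 1.55% of genes as higher, and by edgeR without multipara S-961 4, which called 2.69% as higher. Multipara S-961 4 was set apart because Mki67 and these 4 genes were low in it, so leaving it out favors their call. The fits without it, here and below, describe how much rests on that library and do not test parity anew.

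Ezh2, the PRC2 enzyme of dividing cells, was at 11.7, 13.8, 7.58 and 3.06 CPM in multipara S-961 1 to 4 and at 2.73, 3.87 and 2.29 CPM in virgin S-961 1 to 3. The first 3 multipara libraries lay above all virgin libraries, and the fourth lay within the virgin range. The log2 fold change was 1.62 ± 0.47 (SE, edgeR adjusted p = 0.324). Without multipara S-961 4 it was 1.91 ± 0.28 (SE, adjusted p = 0.0118), and DESeq2 on all libraries gave 1.60 (adjusted p = 0.0139). Ezh1, the alternative enzyme, was at 40.1, 31.9, 49.4 and 35.2 CPM in the multipara and at 38.9, 45.8 and 37.2 CPM in the virgin S-961 libraries, so that the groups overlapped fully. Its log2 fold change was -0.03 ± 0.17 (SE, adjusted p = 0.971).

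For the core subunits that both enzymes share, differences were small. Eed, the reader of the mark, was at 20.7, 21.4, 16.1 and 17.6 CPM in multipara S-961 islets, against 15.7, 17.3 and 20.5 CPM in the virgin ones, with a log2 fold change of 0.10 ± 0.15 (SE, edgeR adjusted p = 0.854). Suz12, the scaffold, was at 50.7, 49.7, 47.4 and 35.5 CPM in multipara S-961 islets, against 38.2, 40.0 and 36.7 CPM in the virgin ones. Multipara S-961 1, 2 and 3 lay above all virgin libraries here too, by a much smaller margin than for Ezh2, and multipara S-961 4 was the lowest of the 7. The log2 fold change of Suz12 was 0.28 ± 0.14 (SE, adjusted p = 0.571), and 0.39 without multipara S-961 4 (adjusted p = 0.118).

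Dnmt1, Uhrf1 and Hells, the genes that maintain DNA methylation through replication, were high and low in the same libraries as Ezh2. Dnmt1, the maintenance enzyme, was at 52.7, 46.4, 36.7 and 25.6 CPM in multipara S-961 islets, against 21.98, 25.9 and 18.1 CPM in the virgin ones, and only multipara S-961 4 overlapped with the virgin group. Its log2 fold change was 0.89 ± 0.24 (SE, edgeR adjusted p = 0.315), and 1.06 without multipara S-961 4 (adjusted p = 0.0190). Uhrf1, its guide, was at 16.4, 16.7, 9.86 and 1.63 CPM against 0.62, 1.90 and 0.63 CPM. The fourth multipara library was again inside the virgin range, and the fold change was 10.6, or 3.41 ± 0.78 on the log2 scale (SE, adjusted p = 0.315). Hells, the remodeler, was at 26.7, 23.8, 7.78 and 1.49 CPM against 1.61, 1.24 and 1.03 CPM, a difference of 11.6-fold or 3.54 ± 0.86 on the log2 scale (SE, adjusted p = 0.315). Without multipara S-961 4 the log2 fold changes were 3.77 for Uhrf1 (adjusted p = 0.00604) and 3.91 for Hells (adjusted p = 0.00557). Uhrf1 and Hells rested on few reads in the virgin S-961 libraries, 19 to 63 counts for Uhrf1 and 31 to 52 for Hells.

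Dnmt3a, which methylates new sites, stayed apart from the maintenance genes. It was at 94.4, 68.8, 115.1 and 86.8 CPM in multipara S-961 islets, against 85.4, 97.1 and 78.1 CPM in the virgin ones, with full overlap and a log2 fold change of 0.10 (standard error 0.19, edgeR, adjusted p = 0.898). Bmi1, the PRC1 subunit, was at 60.2, 61.6, 61.2 and 70.4 CPM in multipara S-961 islets, against 72.4, 64.1 and 69.3 CPM in the virgin ones. Its log2 fold change was -0.10 ± 0.11 (SE, adjusted p = 0.813). Kdm6b, the eraser, was at 72.0, 54.2, 77.1 and 64.4 CPM against 70.5, 72.5 and 48.7 CPM, with a log2 fold change of 0.09 ± 0.18 (SE, adjusted p = 0.902). The heat map of centred values shows both behaviors side by side.

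**Figure D2:**
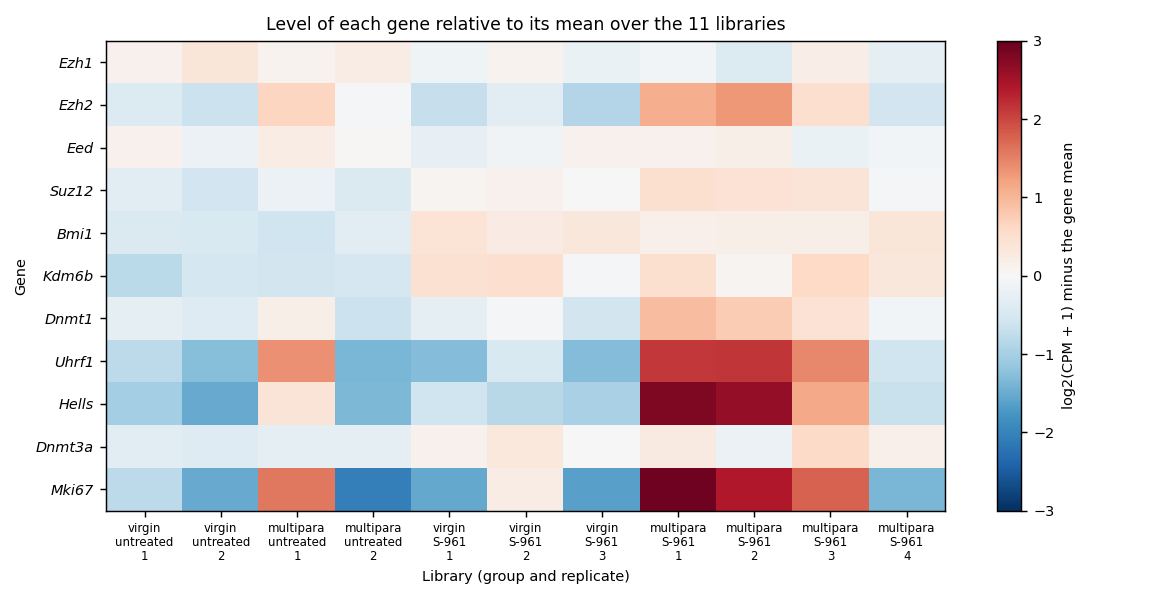
Heat map of log2(CPM + 1) of the 10 genes and Mki67 (rows) in the 11 libraries (columns), each row minus its own mean, red above and blue below it. Ezh2, Dnmt1, Uhrf1 and Hells share their red columns with Mki67 in multipara S-961 1, 2 and 3 and multipara untreated 1, and are pale or blue in multipara S-961 4.

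By the labels as deposited, all 18 listed genes of the cell cycle and DNA replication were higher in multipara S-961 islets. Their median log2 fold change was 2.74, against 0.00 over all genes tested, and 0 of the 18 were called with all libraries. Their summed level was 351.9 to 813.6 CPM in multipara S-961 1, 2 and 3, 144.4 CPM in multipara S-961 4 and 141.3 to 165.7 CPM in the virgin S-961 libraries. Without multipara S-961 4, 16 of the 18 were called higher. The study reports the opposite direction, with cell cycle genes lower in islets of multiparous mice given S-961. By staining, it also reports a smaller share of Ki67-positive beta cells from multiparous than from virgin mice after S-961, in the pancreas and in transplanted islets. That staining is of protein in beta cells, whereas the values here are RNA of whole islets. The cause of this disagreement was not tested. When the mean level of the list was added to the model as a covariate, the log2 fold change was 0.15 for Ezh2, 0.24 for Dnmt1, 0.96 for Uhrf1 and 0.38 for Hells (edgeR). That list was high in the same libraries as these 4 genes, and the model called 0 of 16784 genes and gave all 10 genes here the same adjusted p, so its p-values say nothing particular to them. The 8 stromal markers were also higher in multipara S-961 islets in 8 of 8 cases, with a sum of 141.7 to 304.3 CPM against 77.0 to 84.8 CPM, and 5 of the 8 were called without multipara S-961 4. The sum of 15 acinar markers was 5552 to 16671 CPM in multipara and 2329 to 8710 CPM in virgin S-961 islets. No stromal marker was at 0 in any library. With the mean level of the acinar list as a covariate, the log2 fold change was 0.66 for Ezh2, 0.40 for Dnmt1, 1.75 for Uhrf1 and 1.58 for Hells, and 0 genes were called. The part of stromal cells in these differences was not tested.

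**Figure D3:**
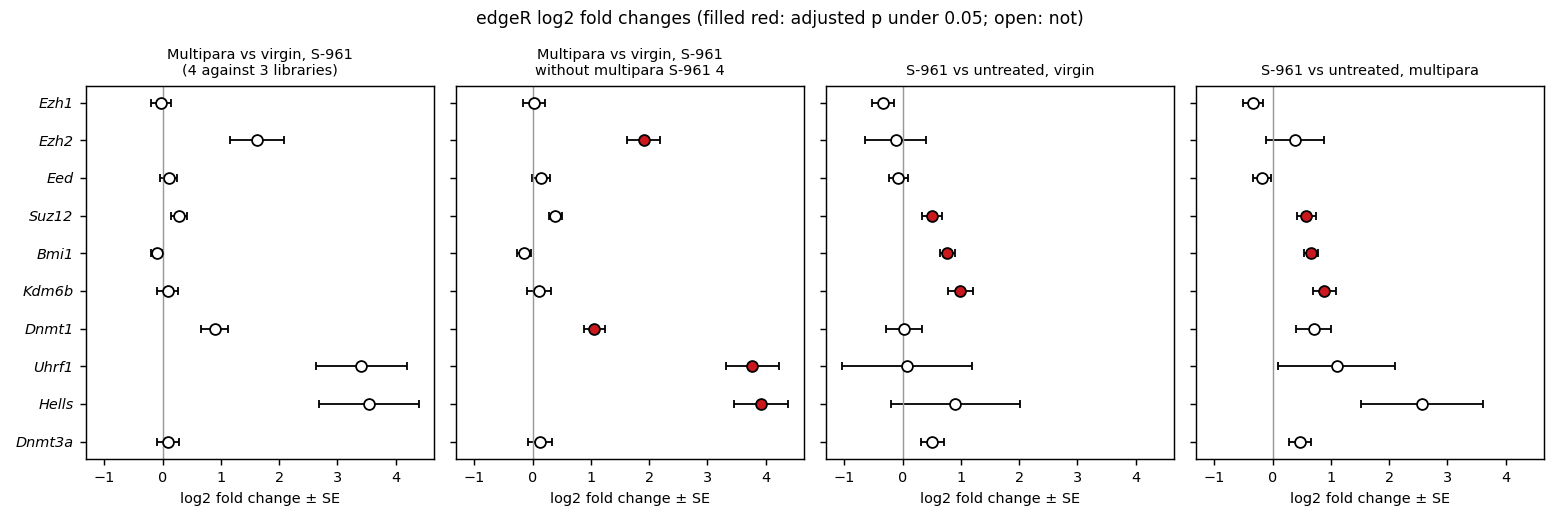
log2 fold changes from edgeR (points, with bars of 1 standard error) of the 10 genes in 4 comparisons, filled red where the adjusted p was under 0.05. Ezh2, Dnmt1, Uhrf1 and Hells went from not called to called without multipara S-961 4, a library singled out for its low values of them. The treatment comparisons called Suz12, Bmi1 and Kdm6b instead.

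Other genes of the same systems were taken from lists, and in the comparison of multipara with virgin islets after S-961 their medians lay near that of all genes. Of 7 further PRC2 subunits tested, the median log2 fold change was 0.06, and of 21 PRC1 subunits it was 0.02. The medians were -0.04 for 4 further erasers, 0.18 for 8 further DNA methylation writers and partners, 0.12 for 7 genes of DNA demethylation and -0.02 for 8 readers of methylated DNA, against 0.00 for all genes. None of these genes was called with all libraries. Without multipara S-961 4, Phf19, a PRC2 accessory subunit, was called at a log2 fold change of 1.99 (edgeR, adjusted p = 0.0150). Cdca7, the partner of Hells, was called at 2.24 (adjusted p = 0.0275), and its paralog Cdca7l at 1.81 (adjusted p = 0.0198). In the same fit 0 of the 21 PRC1 subunits, 4 erasers, 7 demethylation genes and 8 readers were called.

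Neither Cdkn2a nor its neighbor Cdkn2b was called between multipara and virgin islets, with or without S-961. Cdkn2a was low in every library, at 0.45 to 1.37 CPM from 12 to 46 counts. Its log2 fold change between multipara and virgin islets after S-961 was 0.20 (edgeR, adjusted p = 0.918). Cdkn2b was at 2.97, 4.17, 7.30 and 3.51 CPM in multipara S-961 1 to 4 and at 3.94, 2.90 and 4.11 CPM in virgin S-961 1 to 3, giving a log2 fold change of 0.33 (adjusted p = 0.798). After S-961 the groups overlapped for both genes. In untreated islets they did not, for either gene, as for 13.5% of all genes with multipara higher. Cdkn2a was at 1.30 and 1.23 CPM in multipara islets, from 30 and 20 counts, and at 0.72 and 0.48 CPM in virgin islets, from 19 and 12 counts. Its log2 fold change without S-961 was 1.10 ± 0.38 (SE, unadjusted p = 0.0373 and adjusted p = 0.719 by edgeR). Cdkn2b was at 14.7 and 13.4 CPM in multipara untreated islets, against 11.2 and 12.2 CPM in the virgin ones, and differed by 0.30 ± 0.14 on the log2 scale (SE, edgeR adjusted p = 0.719). The Cdkn2a row counts all transcripts of the locus, so p16 and p19 were not told apart.

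Without S-961, 2 multipara were compared with 2 virgin libraries. None of the 10 genes was called, as none of the 15812 genes tested was (0%), and the smallest adjusted p of any gene was 0.0561. At an unadjusted p under 0.05, 399 genes were higher and 490 lower in multipara islets, with Ezh2 the only member of the 10 among them, while DESeq2 called 21 genes higher and 33 lower and 0 of the 10. The 2 groups did not overlap, with multipara higher, for 2 of the 10 genes, Ezh2 and Dnmt3a, and for 13.5% of all genes. Ezh2 was at 8.40 and 4.86 CPM in multipara islets, against 3.52 and 2.82 CPM in the virgin ones, with a log2 fold change of 1.11 ± 0.36 (SE, edgeR adjusted p = 0.719). Over 13 alternative settings, leaving out a library among them, the log2 fold change of Ezh2 ran from 0.62 to 1.45. The value of 8.40 CPM was that of multipara untreated 1, the library with high Mki67 and immune markers. Kdm6b was at 34.4 and 35.5 CPM against 28.7 and 34.8 CPM, and Dnmt3a at 63.3 and 63.8 CPM against 61.0 and 59.3 CPM, both small differences, and the groups overlapped for Kdm6b.

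The maintenance genes in untreated islets depended on 1 library. Uhrf1 was at 9.31 CPM in multipara untreated 1 and at 0.55 CPM in multipara untreated 2, with 1.33 and 0.64 CPM in the virgin libraries. Hells was at 4.16 and 0.55 CPM in multipara islets, against 0.95 and 0.40 CPM in the virgin ones. Dnmt1 was at 30.7 and 16.9 CPM against 22.2 and 20.7 CPM, so that the multipara libraries lay on both sides of the virgin ones. The log2 fold changes were 2.39 for Uhrf1, 1.87 for Hells and 0.20 for Dnmt1 (edgeR, adjusted p = 0.719, 0.719 and 0.882). Without multipara untreated 1 they were -0.83, -0.29 and -0.34. Without multipara untreated 2, which left multipara untreated 1 as the lone multipara library and assumed that it varied like the virgin ones, 4 of the 10 genes and 8.81% of all genes were called higher, namely Ezh2 at 1.45, Dnmt1 at 0.57, Uhrf1 at 3.28 and Hells at 2.66. All 8 lymphocyte markers and all 8 macrophage markers were higher in the multipara untreated group, and the values of multipara untreated 1 for these lists are given above. Cd3e, a T cell marker, was at 0 in multipara untreated 2 and at 6.97 CPM in multipara untreated 1. The part of lymphocytes and macrophages in the levels of Uhrf1, Hells and Ezh2 in that library was not tested.

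The other genes of the group were near equal in untreated islets. Ezh1 was at 45.6 and 50.1 CPM in multipara islets, against 46.5 and 54.8 CPM in the virgin ones, Eed at 22.1 and 19.4 against 20.5 and 16.4 CPM, and Suz12 at 32.3 and 26.8 against 29.1 and 24.0 CPM. Bmi1 was at 35.3 and 42.6 CPM against 40.2 and 39.2 CPM. The values of the groups overlapped for each of these genes. Their log2 fold changes lay between -0.04 (Ezh1) and 0.21 (Eed), with standard errors of 0.10 to 0.16.

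Whether parity acted differently with and without S-961 was tested as an interaction over all 11 libraries. It was called for none of the 10 genes and for none of 17996 genes (0%) by edgeR, whereas 768 genes were higher and 411 lower at an unadjusted p under 0.05. DESeq2 called 66 genes as higher and 22 as lower, with 0 of the 10 genes among them. The difference of the log2 fold changes was 1.66 ± 1.47 (SE) for Hells and 1.02 ± 1.48 (SE) for Uhrf1. It was 0.69 (standard error 0.42) for Dnmt1 and 0.50 (standard error 0.72) for Ezh2.

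S-961 itself was followed by a different set of the 10 genes. Suz12, Bmi1 and Kdm6b were higher with S-961 than without it in virgin and in multipara islets, and Dnmt3a was higher in both by a similar amount without passing the test. In virgin islets 3 of the 10 genes were called higher and 0 lower, against 18.8% of all genes called higher and 36.5% called in either direction. In multipara islets 3 of the 10 were called higher and 0 lower, against 18.2% and 37.6%. Treated and untreated libraries did not overlap for 6085 genes higher and 6192 lower with S-961 in virgin islets, of 17996 tested. In multipara islets these counts were 4718 and 4010. Of the 10 genes, 5 were higher and 1 was lower without overlap in virgin islets, and 4 and 0 in multipara islets. Read against these values for all genes, neither the calls nor the separations are a result particular to this group of genes. The virgin and the multipara comparison share no libraries but were fitted together, with 1 estimate of the spread.

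Kdm6b, the eraser of the PRC2 mark, was at 48.7 to 72.5 CPM in the virgin S-961 libraries, against 28.7 and 34.8 CPM without S-961, and the groups did not overlap. Its log2 fold change was 0.99 ± 0.21 (SE) in virgin islets (edgeR, adjusted p = 0.00437). In multipara islets it was 0.89 ± 0.20 (SE, adjusted p = 0.00637), from 34.4 and 35.5 CPM untreated to between 54.2 and 77.1 CPM with S-961. Bmi1 was at 64.1 to 72.4 CPM against 40.2 and 39.2 CPM in virgin islets, a log2 fold change of 0.77 ± 0.13 (SE, adjusted p = 0.00119). In multipara islets Bmi1 was at 60.2 to 70.4 CPM against 35.3 and 42.6 CPM, a log2 fold change of 0.65 ± 0.12 (SE, adjusted p = 0.00214). The libraries of Bmi1 did not overlap between treatments in either. The call of Kdm6b was lost in virgin islets without virgin untreated 1 (adjusted p = 0.0556) and in multipara islets without multipara untreated 1 (adjusted p = 0.0520).

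Suz12 was at 36.7 to 40.0 CPM with S-961 and at 29.1 and 24.0 CPM without it in virgin islets, and at 35.5 to 50.7 CPM against 32.3 and 26.8 CPM in multipara islets. The groups did not overlap in either. The log2 fold changes were 0.51 ± 0.17 (SE, edgeR adjusted p = 0.0363) and 0.58 ± 0.16 (SE, adjusted p = 0.0172). In virgin islets the call of Suz12 was lost when any of 4 of the 5 libraries was left out, with adjusted p-values from 0.0615 to 0.273. In multipara islets it was lost without multipara untreated 2 (adjusted p = 0.145). Dnmt3a was at 78.1 to 97.1 CPM against 61.0 and 59.3 CPM in virgin islets, giving a log2 fold change of 0.51 (adjusted p = 0.0664), and at 68.8 to 115.1 CPM against 63.3 and 63.8 CPM in multipara islets, giving a log2 fold change of 0.47 (adjusted p = 0.0703). The libraries of Dnmt3a did not overlap between treatments in either comparison, a separation that many genes showed, as given above.

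Ezh1 and Eed were not called in either comparison. Ezh1 was at 37.2 to 45.8 CPM with S-961 and at 46.5 and 54.8 CPM without it in virgin islets, without overlap. In multipara islets the groups overlapped for Ezh1, and for Eed they overlapped in both. The log2 fold change of Ezh1 was -0.34 in virgin and -0.34 in multipara islets (edgeR, adjusted p = 0.184 and 0.155). That of Eed was -0.07 and -0.19 (adjusted p = 0.765 and 0.373). These signs depended on the scaling. Scaling by total counts alone, without TMM, moved the median log2 fold change of all genes to 0.43 in virgin and 0.61 in multipara islets, and gave 0.13 and 0.26 for Ezh1 and 0.39 and 0.38 for Eed. It also changed the split of called genes from 3390 higher and 3172 lower to 6409 and 1272 in virgin islets, and from 3272 and 3496 to 7787 and 1304 in multipara islets. Relative to that shifted median, Ezh1 and Eed stayed lower.

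Of the proliferation-linked genes, none was called with S-961 in either parity group. Ezh2 differed by -0.12 on the log2 scale in virgin and by 0.38 in multipara islets, and Dnmt1 by 0.02 and 0.70. Hells differed by 0.91 in virgin islets (edgeR, adjusted p = 0.558) and by 2.57 in multipara islets (adjusted p = 0.0743), and Uhrf1 by 0.07 and 1.10. The standard errors of these 4 genes were 0.30 to 1.04 in multipara and 0.31 to 1.11 in virgin islets. In virgin islets Hells was at 1.03 to 1.61 CPM with S-961 and at 0.95 and 0.40 CPM without it. These groups did not overlap, on only 25 and 10 counts in the untreated libraries. Without multipara S-961 4, Dnmt1 was called at 0.87 (adjusted p = 0.0278) and Hells at 2.94 (adjusted p = 0.0162).

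Acinar markers moved with treatment in every library. Their sum was 123.1 to 244.0 CPM over the 4 untreated libraries and 2329 to 16671 CPM over the 7 S-961 libraries, and all 15 were higher with S-961 in both parity groups, 12 called in virgin and 14 in multipara islets. Ptf1a, an acinar factor, was at 0 in virgin untreated 2 and multipara untreated 1. The 8 immediate early genes, which respond to cell handling and stimulation, summed to 1087 to 1786 CPM untreated and to 2805 to 4854 CPM with S-961. With the mean level of the acinar list as a covariate, 0 of the 10 genes were called in either parity group, and the log2 fold changes in virgin islets were 1.13 for Bmi1, -0.12 for Suz12 and -0.01 for Kdm6b. That model called 1 gene in virgin and 0 in multipara islets, since the covariate and the treatment nearly coincide, so that the treatment and the acinar RNA cannot be told apart here.

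Among the other Polycomb genes, S-961 was followed by changes in both directions. The counts below stand beside the shares of all genes given above, 18.8% called higher and 36.5% called in either direction in virgin islets, and 18.2% and 37.6% in multipara islets, and no list was tested against them. Of 21 further PRC1 subunits, 6 rose and 3 fell in virgin islets, with a median log2 fold change of 0.04 against -0.04 for all genes, and 8 rose and 4 fell in multipara islets, with a median of -0.07 against 0.03. Pcgf1, the paralog of Bmi1 in a variant PRC1, fell by 0.77 in virgin (edgeR, adjusted p = 0.00747) and by 1.15 in multipara islets (adjusted p = 0.000662). Pcgf5 and Pcgf6, further paralogs, rose by 0.59 and 0.69 in virgin and by 0.60 and 0.81 in multipara islets. Phc2 fell by 0.72 and 0.66, and Phc3 rose by 0.75 and 0.72.

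Of 8 further PRC2 subunits, only Mtf2, an accessory subunit that brings the complex to CpG islands, was called. It rose by 1.04 in virgin (edgeR, adjusted p = 0.00140) and by 0.63 in multipara islets (adjusted p = 0.0130). Of 4 further erasers, 2 rose in each parity group. Kdm6a, the paralog of Kdm6b, rose by 0.90 and 0.74, and Asxl2, a partner of the H2A deubiquitinase, rose by 1.09 and 1.14.

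Of 8 further writers and partners, 1 was called in virgin islets, Usp7, a deubiquitinase that stabilizes Dnmt1 and Uhrf1, at 0.39 (edgeR, adjusted p = 0.0252), and 0 in multipara islets. Of 7 demethylation genes, 2 rose and 1 fell in each parity group. Tet2, which oxidizes methylated cytosine, rose by 1.68 and 1.48, and Tdg, which excises the oxidized base, rose by 0.98 and 0.70. Gadd45b fell by 1.14 in virgin islets (adjusted p = 0.0132), and Apobec1 fell by 1.05 in multipara islets (adjusted p = 0.0414). Of 8 readers, 3 rose and 1 fell in virgin islets and 2 rose and 2 fell in multipara islets. Zbtb33 rose by 1.04 and 1.12, Zbtb38 by 0.88 and 0.66, and Mbd3 fell by 0.52 and 0.67. Mbd4, a glycosylase, rose by 1.65 in virgin islets (adjusted p = 0.00289) and differed by 0.75 in multipara islets (adjusted p = 0.0670). The acinar sums given above moved with treatment in the same libraries.

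**Figure D4:**
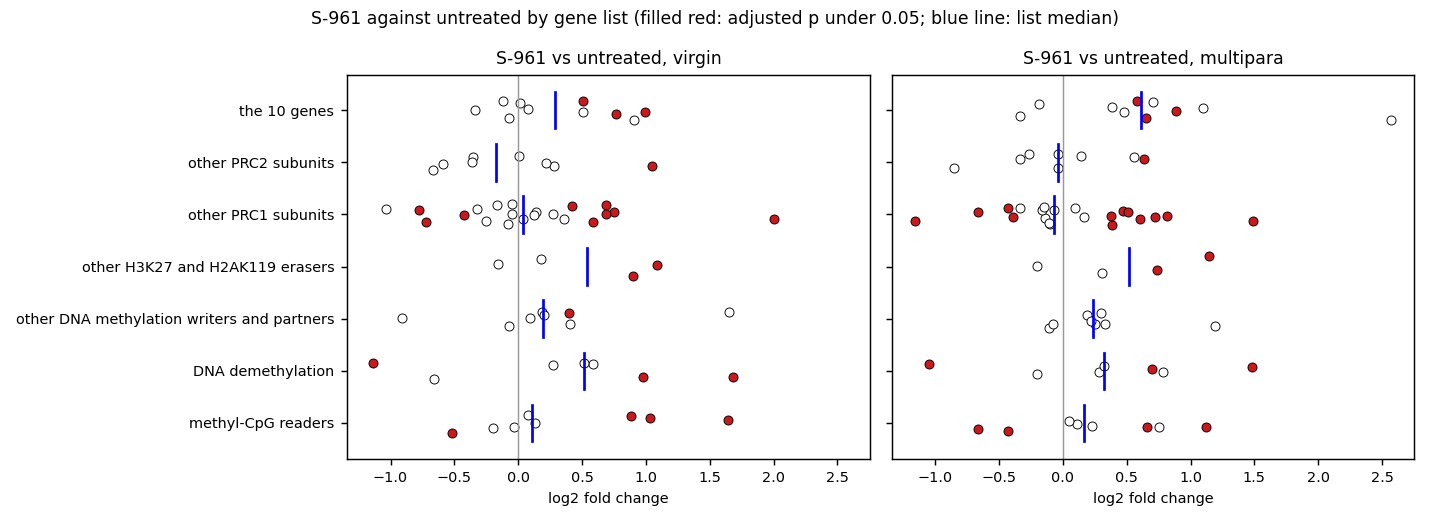
log2 fold change with S-961 (x axis) of each gene of 7 lists (rows) in virgin and multipara islets, a point per gene, filled red where the edgeR adjusted p was under 0.05, with a blue line at the list median. Called genes lie on both sides of 0 among the PRC1 subunits, the demethylation genes and the readers. They lie only on the right among the 10 genes, the PRC2 subunits, the erasers and, in virgin islets, the writers and partners.

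Cdkn2b, a neighbor of Cdkn2a and a known target of Polycomb, was lower with S-961. It was at 2.90 to 4.11 CPM in virgin S-961 and at 11.2 and 12.2 CPM in virgin untreated islets, and at 2.97 to 7.30 CPM in multipara S-961 and at 14.7 and 13.4 CPM in multipara untreated islets. The groups did not overlap, which was common among all genes between treatments, as given above. Cdkn2b fell by 1.71 on the log2 scale in virgin (edgeR, adjusted p = 0.00322) and by 1.69 in multipara islets (adjusted p = 0.00221). Cdkn2a differed by 0.29 and -0.63 (adjusted p = 0.716 and 0.337).

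The balance of paired enzymes differed between libraries, and is given per kilobase as a description. The ratio of Ezh2 to Ezh1 was 0.33, 0.48, 0.17 and 0.10 in multipara S-961 1 to 4 and 0.08, 0.09 and 0.07 in virgin S-961 1 to 3. In untreated islets it was 0.21 and 0.11 in multipara and 0.08 and 0.06 in virgin libraries. The ratio of Dnmt1 to Dnmt3a was 1.26, 1.52, 0.72 and 0.67 in multipara S-961 and 0.58, 0.60 and 0.52 in virgin S-961 libraries, and 1.09 and 0.60 in multipara untreated and 0.82 and 0.79 in virgin untreated libraries. Per kilobase of all annotated exons, Dnmt1 exceeded Dnmt3a in 3 libraries, multipara S-961 1 and 2 and multipara untreated 1. These were among the 4 libraries with the highest Mki67. The fourth, multipara S-961 3, had 43.0 CPM of Mki67 and a ratio of 0.72. In plain CPM Dnmt3a was above Dnmt1 in every library, at 59.3 CPM or more against 52.7 CPM or less.

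**Figure D5:**
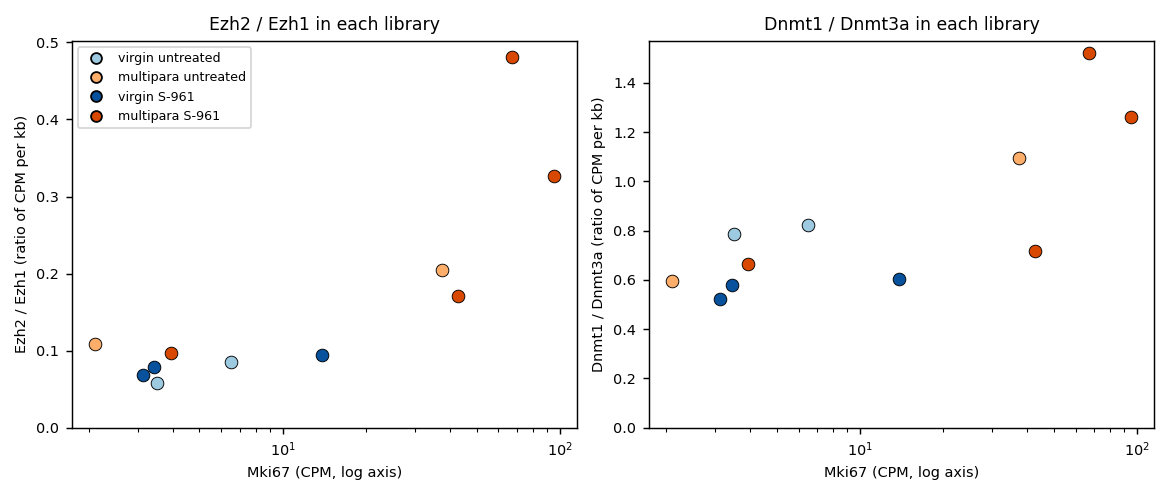
Ratio of Ezh2 to Ezh1 (left) and of Dnmt1 to Dnmt3a (right), each in CPM per kb of exon, against Mki67 in CPM on a log axis, with a point per library colored by group. The 4 libraries with Mki67 of 37.5 CPM or more hold the 4 highest Ezh2 to Ezh1 ratios, from 0.17 to 0.48.

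The genes most like each of 4 members were sought among 11279 other genes by the root mean square difference of centred log2 CPM over the 11 libraries. Nearest to Ezh2 were Incenp at 0.20, Smc4 at 0.25, Lig1 at 0.27, Mad2l1 at 0.31 and Mcm6 at 0.32, genes of chromosome segregation and DNA replication, where Ezh2 itself had an SD of 0.89. Nearest to Uhrf1 were Mki67 at 0.39, Top2a at 0.59, Mcm5 at 0.61, Ccna2 at 0.67 and Mcm3 at 0.71, with an SD of 1.95 for Uhrf1. Ezh1, with an SD of 0.24, was nearest to Ushbp1 (0.07), Zhx2, Rmnd5a, Pdk2 and Washc2 (0.09 to 0.10). Dnmt3a, with an SD of 0.32, was nearest to Scn8a (0.07), Klf3, Bicral, Prr12 and Itga6 (0.08 to 0.10). A gene that varies little has many near neighbors by this measure, and all 11 libraries are shared by every pair.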

How the data were processed

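Islet polyA RNA was made into stranded libraries with a TruSeq kit. The authors deposited estimated counts (expected counts) of reads per gene for each library, without normalization. The submitters' processing notes name STAR, RSEM and the builds GRCm38 and mm10, and the versions are not given in the sources used here. All 55536 identifiers and symbols matched GENCODE M21, the source of coordinates and exon lengths.

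Counts were rounded and tested with edgeR 4.0.16 in R 4.3.3 over all genes passing filterByExpr (minimum count 10, minimum total 15), with TMM scaling, the quasi-likelihood F-test and Benjamini-Hochberg adjustment at 0.05. Parity was fitted on the libraries of its own treatment, and the interaction and S-961 comparisons on all 11. CPM came from TMM over all 11 libraries. DESeq2 1.42.0, other scalings and filters, covariates, a replicate block and leaving out each library were alternatives. The fits were also run on simulated counts, drawn without a library that departs from its group, and no result here rests on them. Figures were made with matplotlib 3.10.9.

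The members and the gene lists were chosen with earlier results of these data known. Named genes were the 10 members, Mki67, Cdkn2a, Cdkn2b and, in each list of the 2 systems, genes past the threshold and up to 3 with the largest change. The other lists were cell type markers, proliferation and immediate early genes. Of 176 listed genes, 175 were in the tables, and Ezhip was not analysed here. Some genes that the rule would name are not reported here. Over 11 pairs of libraries of the same group, a chi-square statistic of the counts per gene was 9.41 to 126.7, so that no library repeated another.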

Additional observations from a re-analysis of the deposited data

Results flagged for a closer look

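Bmi1 was at 70.4 CPM in multipara S-961 4, apart from the 60.2 to 61.6 CPM of the other 3 multipara S-961 libraries. Its gap to the nearest of them was 0.868 of the range of the group, above Dixon's 95% critical value for 4 samples. The group of 4 multipara S-961 libraries was tested in this way for each of the 10 genes, and chance flags about 1 in 20 such groups. The same library had 3.95 CPM of Mki67. In multipara against virgin S-961 islets, the log2 fold change of Bmi1 was -0.10 with it and -0.15 without it, and neither was called by edgeR (adjusted p = 0.813 and 0.607).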

How the results depend on the processing

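Over the 50 member results, 643 of the values under the alternatives kept their direction and their side of the threshold, 10 lost a call, 37 gained a call and 78 changed sign, mostly for differences near 0. For multipara against virgin with S-961, the calls went from 0 to 4 of the 10 genes with DESeq2 and with the replicate block, and ranged from 0 to 4 when a library was left out. The numbers of the labels were not taken to pair the libraries. In their deviations from the group means, same-numbered virgin and multipara S-961 libraries correlated at 0.06, 0.01 and 0.09, the untreated ones at 0.28 for both numbers, which are 1 value by construction in groups of 2, and S-961 with untreated libraries at -0.14 to 0.12. The block also gives replicate 4 a term of its own, which removes multipara S-961 4 by construction. Without treatment, leaving out a library gave 0 to 4 calls. For S-961 in virgin islets, calls went from 3 to 0 with the acinar covariate and ranged from 1 to 3 when a library was left out, with 1 without virgin untreated 1. For S-961 in multipara islets, calls went from 3 to 6 with DESeq2, with total counts and with no filter, to 5 with the block and to 0 with the acinar covariate, and ranged from 2 to 5 when a library was left out. The cause of these changes was not tested.

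The following log2 differences changed sign. With total counts only, they were 0.041 (Ezh1, parity with S-961), -0.045 (Bmi1, parity untreated), 0.13 (Ezh1), 0.0076 (Bmi1), 0.017 (Kdm6b) and 0.094 (Dnmt3a) for the interaction, 0.13 (Ezh1), 0.35 (Ezh2) and 0.39 (Eed) for S-961 in virgin islets, and 0.26 (Ezh1) and 0.38 (Eed) for S-961 in multipara islets. With DESeq2, Bmi1 was -0.0019 for parity untreated. With no filter, Bmi1 was -0.0058 for parity untreated and Ezh1 0.028 for the interaction, and with a minimum count of 50 Ezh1 was 0.015 for the interaction. With the replicate block, Ezh1 was 0.0013 for parity with S-961 and 0.032 for the interaction, and Ezh2 was 0.081 for S-961 in virgin islets. With the proliferation covariate, parity with S-961 gave -0.037 (Eed), -0.037 (Suz12) and 0.040 (Bmi1), parity untreated -0.16 (Dnmt1) and -0.020 (Uhrf1), the interaction 0.012 (Ezh1), -0.41 (Ezh2), -0.13 (Suz12), -0.12 (Uhrf1) and -0.13 (Hells), and S-961 in multipara islets -0.52 (Ezh2) and -0.079 (Uhrf1). With the acinar covariate, parity with S-961 gave -0.087 (Kdm6b). S-961 in virgin islets gave 0.19 (Eed), -0.12 (Suz12), -0.0062 (Kdm6b), -1.86 (Dnmt1), -5.54 (Uhrf1) and -4.39 (Hells), and in multipara islets -3.18 (Ezh2), 0.11 (Eed), -0.11 (Suz12), -0.18 (Kdm6b), -1.35 (Dnmt1), -4.97 (Uhrf1) and -3.43 (Hells).

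When a library was left out, signs changed over these ranges. Parity with S-961 ran from -0.18 to 0.067 (Ezh1), -0.083 to 0.19 (Kdm6b) and -0.057 to 0.22 (Dnmt3a). Parity untreated ran from -0.16 to 0.071 (Ezh1), -0.12 to 0.11 (Bmi1), -0.34 to 0.57 (Dnmt1), -0.83 to 3.28 (Uhrf1) and -0.29 to 2.66 (Hells). The interaction ran from -0.14 to 0.11 (Ezh1), -0.29 to 0.049 (Eed), -0.080 to 0.22 (Suz12), -0.24 to 0.025 (Bmi1), -0.27 to 0.028 (Kdm6b) and -0.18 to 0.093 (Dnmt3a). S-961 in virgin islets ran from -0.36 to 0.061 (Ezh2), -0.23 to 0.10 (Eed), -0.12 to 0.15 (Dnmt1) and -0.69 to 0.70 (Uhrf1). Uhrf1 and Hells had no value untreated at a minimum count of 50, which removed them. Depth limits Uhrf1 and Hells most, with as few as 9 counts in a library.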

Other observations

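Marker lists outside the Polycomb and DNA methylation systems also differed between the groups. Alpha cell markers summed to 50036 to 57207 CPM in virgin untreated and 25518 to 37911 CPM in multipara untreated islets, with all 6 lower and 0 called. After S-961 the sums were 14198 to 16045 CPM in virgin and 16505 to 24943 CPM in multipara islets, with all 6 higher and 0 called. For delta and PP cell markers the untreated sums were 14480 to 15746 CPM in virgin and 12019 to 12851 CPM in multipara islets. Duct markers, 7 in all, were higher in multipara islets after S-961 in 7 of 7 cases with a median log2 fold change of 1.08, and 2 were called without multipara S-961 4. Red cell markers were at 2312 CPM in multipara untreated 1 and at 56.8 to 706.8 CPM in the other libraries.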
